A study of Nothobranchius furzeri with 6 samples.

Results

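The comparison described here is that of ribosome occupancy in the liver of old and young turquoise killifish (Nothobranchius furzeri), a short-lived annual fish used in aging research. Its members are 4 of the 6 ribosome-profiling libraries of the series, chosen by their age label: 2 young libraries from fish at 5 weeks post-hatching and 2 old libraries from fish at 39 weeks post-hatching. The other 2 libraries, from adult fish at 12 weeks post-hatching, shared the fit and are given as a reference point. All libraries came from whole liver with no treatment named, and each pooled several livers, 5 to 10 per the labels and 2 to 10 per the study's methods, with equal numbers of male and female fish, so that differences between single fish are averaged within a library. The sources used here name MZM-0410 as the study's usual strain without repeating it for the liver libraries.

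In ribosome profiling, mRNA is digested with RNase I, the short fragments protected by ribosomes are sequenced, and the number of fragments (footprints) on a coding sequence measures how many ribosomes sat on it. That number rises with the amount of an mRNA, with its translation, and where ribosomes pause on it. No matched RNA sequencing was used here, so all of these are contained in each value. The study reports more pausing with age in liver, to a lower extent than in brain. For the aging brain it states that more ribosomes on an mRNA need not mean more protein made. Since whole livers were pooled, fewer cells of a type and less RNA per cell cannot be told apart in any of the results below. Liver parenchyma makes glucose, cholesterol, bile acids and most plasma proteins, stores iron, and clears hormones and foreign compounds. The tissue also holds blood, resident immune cells and, in many teleost fish, exocrine pancreas.

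The files list 22757 transcripts, each the longest of its gene, with the coding sequence codon by codon and an identifier but no gene name, and none of the identifiers matched the reference annotation used here. The labelled tissue could therefore not be checked against named liver markers. Transcripts are described instead by the protein they encode: each coding sequence was translated and searched for 124 short signatures of known protein families, and 3458 transcripts carried at least 1. A signature points to a family and does not give the gene, and some proteins matched the signatures of more than 1 family. The libraries held 37195456 and 37104582 footprints (young), 39738019 and 38226452 (adult), and 39080600 and 22617158 (old), of which 99.8% to 99.9% lay in coding sequence. The 10 most abundant transcripts took 61.6% and 48.3% of the footprints in the young libraries and 40.4% and 28.7% in the old ones. Levels are therefore given as CPM, footprints scaled to a common total, after trimmed-mean (TMM) scaling, in which a sample factor corrects for such dominant transcripts.

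The coding stretches that carry the family signatures of the transcripts on which the results turn are printed first. They were read 5′ to 3′ from the deposited codons, with the codons of the signature in capitals and 5 codons on either side in lower case. The first 4 belong to the most abundant transcripts that rose and fell, and the other 4 to a sterol enzyme, a glucose enzyme, an iron hormone family and a replication helicase described below.
Nfu_t_1_015005, active-site pocket of the trypsin type (codons 188 to 207 of 245): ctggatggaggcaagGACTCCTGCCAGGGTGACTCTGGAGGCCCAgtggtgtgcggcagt
Nfu_t_1_043512, serine active site of the carboxylesterase type (codons 261 to 286 of 623): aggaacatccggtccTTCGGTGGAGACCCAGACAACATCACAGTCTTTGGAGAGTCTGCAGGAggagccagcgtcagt
Nfu_t_1_018358, beta pattern of the hemoglobin-type globins (codons 31 to 46 of 148): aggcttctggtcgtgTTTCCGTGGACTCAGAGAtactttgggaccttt
Nfu_t_1_018638, alpha pattern of the hemoglobin-type globins (codons 62 to 78 of 172): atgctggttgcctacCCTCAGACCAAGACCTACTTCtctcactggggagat
Transcript with the hydroxymethylglutaryl-CoA synthase signature (codons 124 to 149 of 527): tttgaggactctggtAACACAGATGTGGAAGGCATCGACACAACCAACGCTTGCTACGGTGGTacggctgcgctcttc
Transcript with the phosphoenolpyruvate carboxykinase signature (codons 280 to 298 of 624): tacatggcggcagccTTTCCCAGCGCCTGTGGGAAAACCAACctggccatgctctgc
Transcript with the hepcidin-type cysteine pattern (codons 62 to 89 of 93): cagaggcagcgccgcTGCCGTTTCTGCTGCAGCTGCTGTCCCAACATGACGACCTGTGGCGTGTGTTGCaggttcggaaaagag
Transcript with the MCM replicative helicase signature (codons 398 to 416 of 814): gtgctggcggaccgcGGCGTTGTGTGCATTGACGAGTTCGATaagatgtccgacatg
The signatures are short because they follow the residues that catalysis, ligand binding or disulfide pairing keep constant, and the lower-case flanks are not part of any pattern searched.

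Of 15557 transcripts tested, 1021 had higher ribosome occupancy in old than in young liver (6.56% of those tested) and 779 had lower occupancy (5.01%), at an adjusted p under 0.05. The median log2 fold change over all tested transcripts was 0.07, against 2.09 among the transcripts called higher and -1.44 among those called lower. Changes of at least 2-fold were seen for 975 of the higher and 667 of the lower transcripts, of at least 4-fold for 548 and 180, and of at least 16-fold for 69 and 34. The transcripts that fell were the more abundant ones: their median level was 10.8 CPM with 72 at 100 CPM or more, against 3.05 CPM and 10 transcripts among those that rose and 3.37 CPM over all tested. There were 10 transcripts called higher with no footprint in either young library and 5 called lower with none in either old library.

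Each of the 1800 calls held in all 4 pairs of an old with a young library, in that the old libraries both lay above, or both below, the young ones. This alone was common, since 33.7% of all tested transcripts lay higher and 29.3% lower in the same manner. With library totals alone in place of the TMM factors, 1021 of the higher but 494 of the 779 lower calls held in all 4 pairs, beside 11432 of all transcripts higher and 767 lower. On log2(CPM + 0.5) values, the median difference of the transcripts called higher was 1.35 and 1.23 for old 1 against young 1 and young 2, and 1.55 and 1.46 for old 2. The smallest difference of any called-higher transcript in a pair was 0.40. For those called lower the medians were -1.23, -1.29, -1.21 and -1.3 in the same order. Over all tested transcripts, the median absolute difference between replicates was 0.214 in young and 0.289 in old. At least 2-fold differences were seen for 1.58% of transcripts between the young libraries and 6.73% between the old ones. The called transcripts were selected for differences beyond such spread, so their larger values are no separate evidence. The adult mean lay between the young and old means for 602 of the 1021 transcripts that rose and for 678 of the 779 that fell.

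The calls depended on both young libraries. Without young 1 the same test called 0 transcripts higher and 2 lower (1653 and 1374 at an unadjusted p under 0.05), and without young 2 it called 0 and 3 (1732 and 1368). The 2 and 3 transcripts were globins described below. Apart from them, no call given below for a protein family remained once either young library was left out. Without old 2, the shallowest library, 448 were called higher and 375 lower. The old libraries also had the largest TMM factors, 1.36 and 1.66 against 0.745 and 0.912 in young. With library totals alone in place of these factors the median log2 fold change over all transcripts moved to 0.93, and the split of calls from 1021 higher and 779 lower to 3180 higher and 151 lower. All directions below are therefore relative to the median transcript. Of 134 transcripts that represent the families, each the most abundant called one in its direction, 82 kept their call with library totals alone and 2 changed sign.

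The most abundant transcripts past 2-fold are identified first. Here and below, pairs of levels are the values of replicates 1 and 2, and fold changes are log2 of old over young ± a standard error. This error was computed back from the fold change and the F statistic of its test. It is therefore no measure of precision separate from the p-value. Nfu_t_1_018358, which encodes 148 residues with the beta pattern of the hemoglobin-type globins, stood at 11696 and 14498 CPM in young liver, 6071 and 4539 in adult fish, and 1899.9 and 1645 in old liver. Nfu_t_1_018638, with 172 residues and the alpha pattern, stood at 9091 and 10438, 4901 and 3428, and 1495 and 1287 CPM. Both were lower at each later age, and from young to old they fell 7.39-fold (log2 fold change -2.89 ± 0.37, adjusted p = 0.0149) and 7.02-fold (-2.81 ± 0.36, adjusted p = 0.0149). Nfu_t_1_043512, with 623 residues, the carboxylesterase active site and 2 membrane-like stretches, rose from 587 and 444 CPM to 1536 and 1229.9 (2.69-fold, 1.42 ± 0.32, adjusted p = 0.0378). Carboxylesterases hydrolyse ester bonds of lipids and foreign compounds. Of 7 tested transcripts with their signature 1 rose and 1 fell (6.56% and 5.01% over all transcripts). The faller, of 686 codons, went from 119 and 162 to 47.8 and 40 CPM (log2 fold change -1.68 ± 0.29, adjusted p = 0.0224). The adult values of the riser Nfu_t_1_043512, 307 and 436 CPM, lay below both of its young ones. This call was lost without old 1 (adjusted p = 0.105) and without old 2 (0.0696), and those of the globins were lost without either young library (0.107 and 0.112).

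Nfu_t_1_015005, with 245 residues and the trypsin-type pocket, rose from 584 and 524 CPM to 2502 and 1572 (3.67-fold, 1.88 ± 0.38, adjusted p = 0.0295), with 363 and 583 in adult. Its value is uncertain, since a second transcript of 245 codons has an identical coding sequence and none of the 28-base windows of Nfu_t_1_015005 is unique. All of its counted footprints lay within the first or last 20 codons, and 39.0% lay on a single codon. The identical copy stood at 233 and 178 CPM in young liver and 689 and 408 in old, with a log2 fold change of 1.42 ± 0.44 that did not pass (adjusted p = 0.0803). Without old 1 the log2 fold change of Nfu_t_1_015005 was 1.43 and the call was lost (adjusted p = 0.0719). The other 3 transcripts had between 81.4% and 98.9% unique windows and kept their calls when the first and last 20 codons were left out.

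**Figure D1:**
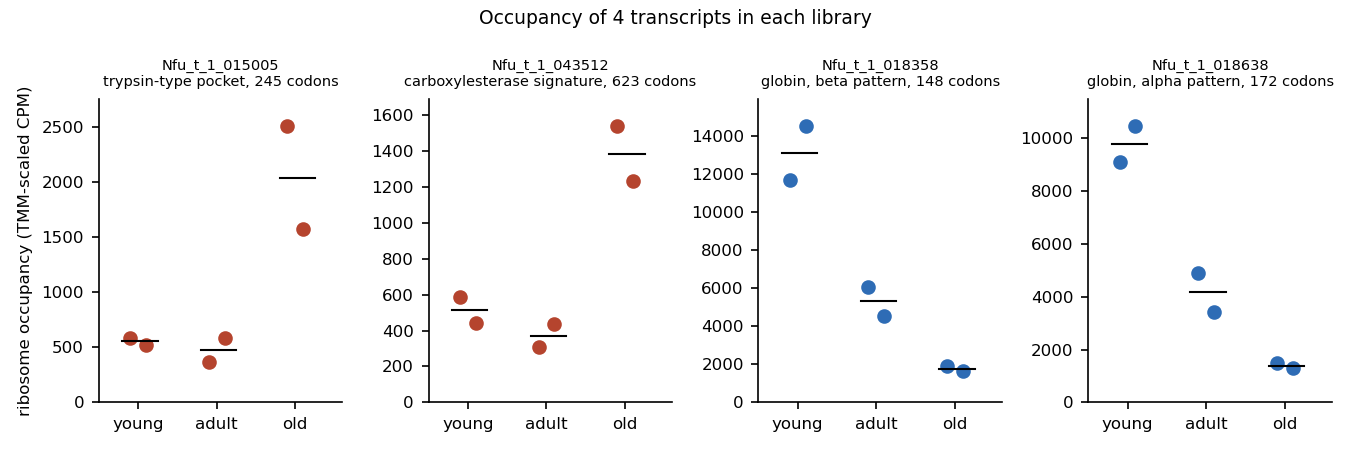
Ribosome occupancy (TMM-scaled CPM, linear axes from 0) of the 4 identified transcripts, with a point per library and a line at the mean of the 2 libraries of each age. Both globin-type transcripts sit at 9091 CPM or more in young and at 1899.9 or less in old, and the trypsin-type and carboxylesterase-type transcripts are highest in the old libraries.

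Hemoglobin-type globins, the oxygen carriers of red blood cells, fell throughout. All 12 tested members of the family had lower occupancy in old than in young liver (5.01% of all transcripts did), with a median log2 fold change of -6.0. Summed over the family, 30975 and 37483 CPM in young liver became 15187 and 10780.5 in adult fish and 4874 and 4236 in old liver, with adult values between the other ages. Besides the pair identified above, a beta-pattern transcript of 148 codons stood at 3439 and 4074 CPM in young liver and 511 and 484 in old (log2 fold change -2.92 ± 0.34, adjusted p = 0.0132). An alpha-pattern transcript of 143 codons stood at 6656 and 8267 in young and 966 and 818 CPM in old (log2 fold change -3.06 ± 0.38, adjusted p = 0.0139). Some less abundant members fell further. A transcript of 147 codons went from 50.2 and 157 CPM in young liver to 0.979 and 1.1 in old (log2 fold change -6.64 ± 0.63, adjusted p = 0.0101). Another of 147 codons, with 18 and 18 footprints in young, had none in either old library. It was at least 9.96-fold lower against a floor of 3 footprints over the old libraries together, by library totals without TMM factors. The smallest fall was that of a transcript of 141 codons (log2 fold change -1.70 ± 0.39, adjusted p = 0.0383). Of 5 tested alpha carbonic anhydrases, enzymes of carbon dioxide and bicarbonate exchange that are abundant in red cells and other tissues, 1 fell. This transcript of 260 codons stood at 242 and 255 CPM in young liver, 118 and 77.3 in adult fish and 54.2 and 37.6 in old (log2 fold change -2.44 ± 0.32, adjusted p = 0.0149). Of the globins, 11 were called lower without old 1 and 11 without old 2, 2 without young 1 and 3 without young 2, and 11 with library totals alone, where the median was -5.22. The part of blood content in these values was not tested.

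Transcripts of sterol synthesis enzymes and of their regulators were called lower and in no case higher. Cholesterol is built in the liver from acetyl-CoA through mevalonate, isoprenoid diphosphates and squalene, and signatures for most of these steps were searched. Of 18 tested transcripts, 16 of enzyme families and 2 of the regulator type, 12 fell (11 and 1) and 0 rose, against 5.01% and 6.56% over all transcripts, with a median log2 fold change of -1.52. Including the 12 called, 15 of the 18 lay lower in all 4 library pairs (29.3% of all tested did), so this count is no separate evidence. Their summed level was 3328 and 3240.0 CPM in young liver, 2101 and 2108 in adult fish and 1075 and 990.1 in old liver.

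The fall ran along the pathway. The transcript with the hydroxymethylglutaryl-CoA synthase signature printed above, the step that makes the precursor of mevalonate, went from 549.8 and 508 CPM in young liver through 251 and 257 in adult to 110.4 and 124 in old (log2 fold change -2.18 ± 0.25, adjusted p = 0.0132). The mevalonate kinase family transcript of 411 codons fell from 31.9 and 35.5 to 7.78 and 8.8 CPM (log2 fold change -2.02 ± 0.29, adjusted p = 0.0166), and the diphosphomevalonate decarboxylase type of 359 codons from 54.5 and 48.3 to 13.1 and 12.1 (log2 fold change -2.03 ± 0.28, adjusted p = 0.0161). These enzymes turn mevalonate into the isoprenoid unit, which isopentenyl diphosphate isomerase then rearranges. The isomerase-type transcript of 240 codons showed the smallest fall among the 12, from 213 and 192 to 109.9 and 82.4 CPM (log2 fold change -1.08 ± 0.26, adjusted p = 0.0432). The largest belonged to a polyprenyl synthetase, of the enzymes that join isoprenoid units into longer chains, which fell from 235 and 228 to 30.3 and 32.8 CPM (log2 fold change -2.87 ± 0.28, adjusted p = 0.0107). Squalene synthase, the first enzyme committed to sterols, fell from 178 and 195 to 62.7 and 75.3 CPM (log2 fold change -1.44 ± 0.25, adjusted p = 0.0225).

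Members of later steps fell as well, although not every member did. The squalene cyclase type, which closes the sterol rings, fell from 92.6 and 106 to 30.3 and 19 CPM (log2 fold change -2.01 ± 0.39, adjusted p = 0.0275), and a sterol reductase of 425 codons from 191 and 211 to 71.9 and 59.8 (log2 fold change -1.61 ± 0.32, adjusted p = 0.0284). The second sterol reductase, of 604 codons, and a polyprenyl synthetase of 420 codons were slightly higher in all 4 library pairs without passing the test (log2 fold changes 0.37 ± 0.20 and 0.27 ± 0.35, adjusted p = 0.267 and 0.634). All 3 tested transcripts with the histidine boxes shared by sterol desaturases and fatty acid hydroxylases fell, the most abundant from 692 and 759 to 235 and 194 CPM (log2 fold change -1.76 ± 0.32, adjusted p = 0.0245). Their place in sterol synthesis is therefore uncertain. They are counted in the group, with 1296 and 1229 CPM together in young liver and 389 and 374 in old. A transcript of 1149 codons with the tyrosine-containing basic helix-loop-helix of the sterol regulatory element-binding proteins, the transcription factors that switch on this pathway, fell from 121 and 127 to 40.8 and 53.4 CPM (log2 fold change -1.40 ± 0.25, adjusted p = 0.0236). Hydroxymethylglutaryl-CoA reductase, the rate-limiting enzyme, stood at 320.0 and 315 CPM in young liver and 171 and 105 in old and did not pass the test (log2 fold change -1.20 ± 0.36, adjusted p = 0.0697). Without old 1 the group had 7 lower calls and without old 2 6, and none without either young library. With library totals alone 1 was called lower, and the median, -0.67, stayed below 0 while that of all transcripts was 0.93.

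**Figure D2:**
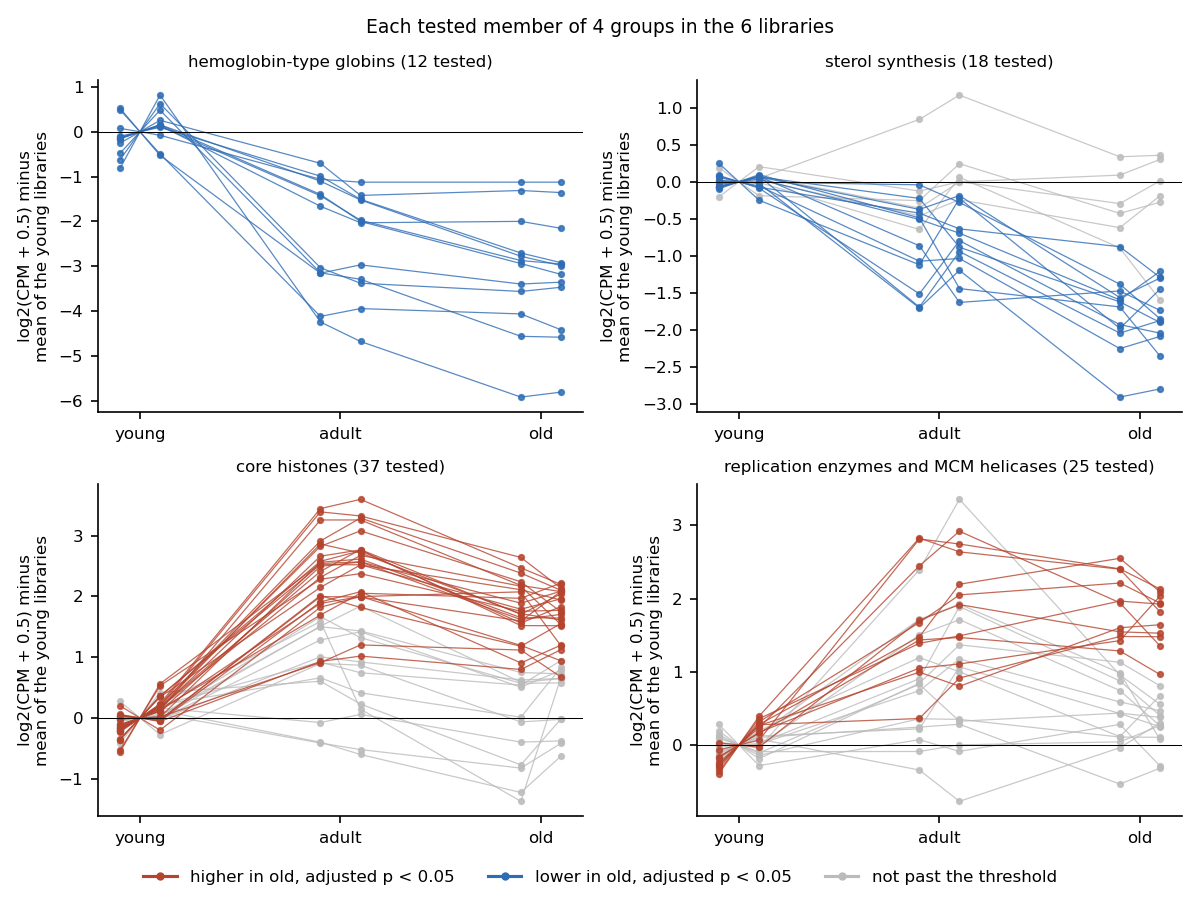
Every tested member of 4 protein groups in the 6 libraries, as log2(CPM + 0.5) minus its mean over the young libraries, with a line per transcript, 2 points per age, and colour for those higher (red) or lower (blue) in old at an adjusted p under 0.05. All 12 globins and 12 of 18 sterol synthesis transcripts are blue, while 24 of 37 histones and 11 of 25 replication enzymes are red and many of these peak in the adult libraries.

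Other lipid families differed in direction, and their counts stand beside 6.56% higher and 5.01% lower over all transcripts. Lipases hydrolyse triglycerides and phospholipids, and of 13 tested transcripts with their serine active site 4 fell and 0 rose (median -0.39). The most abundant, of 516 codons, went from 1759 and 2219 CPM in young liver through 1198 and 605 in adult to 221 and 327 in old (log2 fold change -2.86 ± 0.44, adjusted p = 0.018). Repeated LDL-receptor class A modules, which bind lipoproteins in receptors of this type, gave 1 higher and 2 lower of 22. One of 900 codons fell from 323 and 301 to 115 and 172 CPM (log2 fold change -1.12 ± 0.28, adjusted p = 0.0482), and one of 4566 codons rose from 10.9 and 11.1 to 31.5 and 30.5 (log2 fold change 1.49 ± 0.19, adjusted p = 0.0147). Of 22 tested AMP-binding enzymes of the acyl-CoA synthetase type, which activate fatty acids, 2 fell (0 lower and 5 higher with library totals alone), the more abundant from 362 and 449 to 178 and 115 CPM (log2 fold change -1.47 ± 0.31, adjusted p = 0.0319). Fatty acid oxidation gave 3 lower and 0 higher of 24 (median -0.29), among them an acyl-CoA dehydrogenase of 659 codons that fell from 90.9 and 91.4 to 50.4 and 45.4 CPM (log2 fold change -0.93 ± 0.22, adjusted p = 0.0401) and a thiolase of 395 codons (log2 fold change -1.17 ± 0.30, adjusted p = 0.047). Fatty acid synthesis gave 2 higher and 1 lower of 13, with an elongase of 265 codons up from 1.95 and 2.13 to 6.4 and 4.68 CPM (log2 fold change 1.44 ± 0.31, adjusted p = 0.0336). The other riser, of 518 codons, matched the beta-ketoacyl synthase signature but also that of the aldehyde dehydrogenases, so its place in this group is uncertain. Proteins with a peroxisomal targeting ending, many of them enzymes of lipid breakdown, gave 4 higher and 6 lower of 86, near the shares over all transcripts. None of the 9 fatty acid-binding proteins passed, although their median was 0.78. The lipases gave 4 lower calls without old 1 and 3 without old 2, and fatty acid oxidation 2 and 0. With library totals alone the medians of the lipases and of fatty acid oxidation turned to 0.46 and 0.56.

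Sugar metabolism moved in both directions, with 10 of 62 tested transcripts higher and 5 lower (6.56% and 5.01% over all transcripts). The calls were 27 higher and 3 lower with library totals alone, where the median moved from 0.27 to 1.13. Those that fell under TMM scaling included enzymes with which liver releases glucose. Phosphoenolpyruvate carboxykinase, which commits carbon to gluconeogenesis, stood at 671 and 2015 CPM in young liver, 1539.5 and 1226 in adult fish and 277 and 238 in old (log2 fold change -2.38 ± 0.52, adjusted p = 0.0347). The glucose-6-phosphatase type of 355 codons, whose enzyme frees glucose for export, fell from 4008 and 5214 to 644 and 1697 CPM (log2 fold change -1.98 ± 0.50, adjusted p = 0.0483). A transcript of 470 codons in the family of phosphoglycerate mutase and the fructose-2,6-bisphosphatases, the latter of which set the balance between glycolysis and gluconeogenesis, fell from 671 and 1163 to 40.9 and 53.7 CPM (log2 fold change -4.28 ± 0.57, adjusted p = 0.0149). A sugar transporter of 503 codons fell from 726 and 778 to 313 and 372 CPM (log2 fold change -1.13 ± 0.27, adjusted p = 0.0416). The main fructose-1,6-bisphosphatase did not share this direction, at 429 and 478 CPM in young liver and 722 and 559 in old (log2 fold change 0.50 ± 0.28, adjusted p = 0.274).

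Among the transcripts that rose, a second fructose-1,6-bisphosphatase of 338 codons went from 0.794 and 0.976 to 5.37 and 8.75 CPM (log2 fold change 2.98 ± 0.34, adjusted p = 0.013). Enolase, a glycolytic enzyme, rose from 36 and 39.7 CPM in young liver through 64.2 and 71.9 in adult to 124 and 104 in old (log2 fold change 1.59 ± 0.24, adjusted p = 0.0168). Glucose-6-phosphate dehydrogenase, which feeds the pentose phosphate pathway and makes NADPH, rose from 25.3 and 32.7 to 76.8 and 74.8 CPM (log2 fold change 1.39 ± 0.29, adjusted p = 0.0322). The sugar transporter of 653 codons was the most abundant of 4 transporters that rose (11.3 and 15.1 to 59.6 and 41.4 CPM, log2 fold change 1.94 ± 0.37, adjusted p = 0.0267). A hexokinase, of the enzymes that trap glucose in the cell, was called higher but differed widely between the old libraries, at 1.54 and 22.3 CPM against 0.505 and 0.355 in young (log2 fold change 4.79 ± 1.22, adjusted p = 0.0483). Without old 1 the group had 11 higher and 3 lower calls, without old 2 6 and 3, and none without either young library.

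Enzymes of amino acid metabolism showed 2 higher and 3 lower calls of 21 tested, beside 6.56% and 5.01% over all transcripts. The calls were 6 higher and 1 lower with library totals alone, where the median turned from -0.11 to 0.74. Aminotransferases move amino groups between amino acids and keto acids, and the most abundant ones of classes I and V both fell. The class I transcript of 475 codons went from 2179.8 and 2426 to 867 and 1009 CPM (log2 fold change -1.3 ± 0.30, adjusted p = 0.0384), and the class V transcript of 330 codons from 1212 and 1801 to 432 and 486 (log2 fold change -1.71 ± 0.37, adjusted p = 0.0329). A cystathionine synthase type of 571 codons, an enzyme of homocysteine and cysteine metabolism, rose from 100.4 and 102 to 177 and 295 CPM (log2 fold change 1.22 ± 0.30, adjusted p = 0.046). Without old 1 the group had 2 higher and 0 lower calls, and without old 2 1 and 0.

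Liver secretes most of the proteins of blood plasma, and among 86 tested transcripts of such families 14 fell and 4 rose (5.01% and 6.56% over all transcripts), with a median log2 fold change of -0.04. Their summed level was 55158 and 65452 CPM in young liver and 38234 and 34274 in old liver. Insulin-like growth factor-binding proteins hold growth factors in the circulation, and 3 of 10 fell (1 lower and 1 higher with library totals alone). One of 243 codons went from 1389.9 and 1689 CPM in young liver through 935 and 169.7 in adult to 70.5 and 214 in old (log2 fold change -3.44 ± 0.87, adjusted p = 0.0476), and another of 264 codons from 386 and 404 to 181 and 176 CPM (log2 fold change -1.14 ± 0.25, adjusted p = 0.0357). Lipocalins, small carriers of lipids and other hydrophobic molecules, had 4 of 11 members lower (median -0.92, but 0 lower and 1 higher with library totals alone), the most abundant from 3738 and 5885 to 1361 and 1396 CPM (log2 fold change -1.80 ± 0.36, adjusted p = 0.0287). A protein of 482 residues with a fibrinogen C-terminal domain, a fold shared by clotting and recognition proteins, fell from 236 and 570.0 to 20.4 and 11.1 CPM (log2 fold change -4.67 ± 0.58, adjusted p = 0.0139). Of 15 with this domain 2 fell and 1 rose, of 504 codons, from 9.06 and 8.7 to 15 and 24.3 CPM (log2 fold change 1.14 ± 0.26, adjusted p = 0.0383). In the insulin family 1 of 5 rose, of 185 codons, from 13.8 and 11.5 to 23.5 and 27.8 CPM (log2 fold change 1.02 ± 0.24, adjusted p = 0.0421). The risers with LDL-receptor modules and with a kringle are given with other families.

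Other secreted families had abundant members that fell, and their counts stand beside 6.56% higher and 5.01% lower over all transcripts. A serpin, of the family of protease inhibitors, fell from 1507 and 1551 to 534 and 602 CPM and was the only one of 13 to pass (log2 fold change -1.43 ± 0.28, adjusted p = 0.0274). A transcript with hemopexin repeats, modules of heme-binding and matrix proteins, fell from 684 and 744 to 289 and 348 (log2 fold change -1.16 ± 0.27, adjusted p = 0.0384), and one with kringle modules, found in clotting proteases, from 423 and 389 to 177 and 225 CPM (log2 fold change -1.02 ± 0.26, adjusted p = 0.0496). Hemopexin repeats gave 0 higher and 1 lower of 10, and kringles 1 higher and 2 lower of 13. The 5 tested transcripts with the thioester site of complement and macroglobulins and the 8 with a pore-forming domain of the complement type gave 0 calls, with medians of -0.22 and -0.05. Of the 86 plasma-type transcripts, 5 were called higher and 7 lower without old 1, 1 and 6 without old 2, and none without either young library. With library totals alone the group turned to 18 higher and 2 lower, a median of 0.79.

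Families that handle drugs, steroids and bile had members in both directions, beside 6.56% higher and 5.01% lower over all transcripts. Cytochromes P450, the heme enzymes that oxidise steroids, fatty acids and foreign compounds, gave 3 higher and 3 lower of 35. The most abundant called member of 498 codons fell from 457 and 396 to 130.5 and 118 CPM (log2 fold change -1.78 ± 0.25, adjusted p = 0.0166), and the most abundant riser of 511 codons went from 24 and 10.9 to 73.7 and 62.5 (log2 fold change 1.97 ± 0.47, adjusted p = 0.0412). UDP-glycosyltransferases, which attach sugar acids to bilirubin, steroids and drugs, had 4 of 15 members lower and 1 higher. One of 529 codons fell from 116 and 104 to 28.8 and 48.6 CPM (log2 fold change -1.51 ± 0.30, adjusted p = 0.0295), and one of 528 codons, named after its values were seen, from 49.2 and 78.2 to 5.01 and 7.97 (log2 fold change -3.30 ± 0.34, adjusted p = 0.0118). ABC transporters pump bile salts, lipids and drugs across membranes, and of 44 transcripts with their signature 6 fell and 1 rose. The most abundant faller went from 601 and 546 to 199 and 222 CPM (log2 fold change -1.45 ± 0.26, adjusted p = 0.0241). The riser, of 1285 codons, had 1 membrane-like stretch against 8 in that faller, so its role as a membrane pump is uncertain. Aldehyde dehydrogenases split, with one of 517 codons at 335 and 342 CPM in young liver and 162 and 156 in old (log2 fold change -1.09 ± 0.24, adjusted p = 0.0343) and one of 518 codons at 12.6 and 14.4 and 35.1 and 37.3 (log2 fold change 1.42 ± 0.20, adjusted p = 0.0166). The transcript of 518 codons also matched the beta-ketoacyl synthase signature. Without old 1 there were 3 lower glycosyltransferases and 3 lower ABC transporters, and without old 2 3 and 2. No call remained without either young library. Under library totals alone their medians turned to 0.47 and 0.87.

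Of the families that regulate transcription, the nuclear receptors fell more often than they rose. These ligand-activated factors sense steroids, bile acids, fatty acids and thyroid hormone, and 10 of 51 fell while 3 rose (5.01% and 6.56% over all transcripts, median -0.15). The most abundant of those that fell, of 585 codons, stood at 145 and 151 CPM in young liver, 121 and 105 in adult fish and 67 and 80.4 in old (log2 fold change -1.0 ± 0.24, adjusted p = 0.0415). One of 425 codons, named after its values were seen, fell from 34.8 and 51.5 to 5.31 and 4.49 CPM (log2 fold change -3.14 ± 0.33, adjusted p = 0.0119). The most abundant that rose, of 499 codons, went from 3.97 and 3.79 to 9.98 and 7.3 (log2 fold change 1.16 ± 0.28, adjusted p = 0.0421). Basic leucine zipper factors gave 5 lower and 0 higher of 41, and 0 lower and 9 higher with library totals alone. The large C2H2 zinc finger family gave 6 higher and 14 lower of 521, shares below those of all transcripts. Without old 1 the nuclear receptors had 0 higher and 6 lower calls, without old 2 1 and 4, and none without either young library. With library totals alone they turned to 9 higher and 1 lower (median 0.71).

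Core histones, which package DNA and are made mainly while DNA is copied, rose in most members. Of 37 tested members 24 were higher in old liver and 0 lower (6.56% and 5.01% over all transcripts, median 1.59). Including the 24 called, 30 lay higher in all 4 library pairs, against 33.7% of all transcripts, so this count is no separate evidence. A log2 fold change below 0 was seen for 6 members, and 3, all of the H3 kind, lay lower in all 4 pairs. Each of the 4 kinds had 6 calls, of 10 H3, 8 H4, 8 H2A and 11 H2B members. The summed level was 836 and 943 CPM in young liver, 2316 and 2365 in adult fish and 1384 and 1482 in old liver, so the adult libraries, not the old ones, were highest. The most abundant called H2A, of 144 codons, stood at 31 and 31.5 CPM in young liver, 187 and 194 in adult fish and 99.1 and 98.7 in old (log2 fold change 1.66 ± 0.22, adjusted p = 0.0149). The called H3 of highest level had 45.3 and 42.1 CPM in young liver and 82.2 and 101 in old (log2 fold change 1.07 ± 0.24, adjusted p = 0.0367), and the called H4, of 103 codons, 32.7 and 30.1 and 54.9 and 68.9 (log2 fold change 0.98 ± 0.23, adjusted p = 0.0384). Histone genes are near-identical copies: all 10 H3 members share their protein with another, all 8 H4 proteins are 1 sequence, and the median member had 49.8% unique 28-base windows, so values of single members are uncertain. With the first and last 20 codons left out, 16 of 31 were called higher. Without old 1 there were 19 calls, without old 2 17, and none without either young library.

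Some of the DNA replication machinery rose as well, at far lower levels than the histones. All 6 tested MCM proteins, which form the ring that unwinds DNA at replication forks, were higher in old liver, with log2 fold changes from 1.75 to 2.78 and a median of 2.10. The one whose signature is printed above, of 814 codons, stood at 1.81 and 2.43 CPM in young liver, 4.88 and 5.1 in adult fish and 6.48 and 10.1 in old (log2 fold change 1.97 ± 0.30, adjusted p = 0.0179). A type II topoisomerase, which untangles replicated DNA, went from 1.34 and 1.51 through 13 and 12.4 to 9.68 and 7.92 CPM (log2 fold change 2.62 ± 0.23, adjusted p = 0.0085). The sliding-clamp protein of the proliferating cell nuclear antigen type rose from 8.85 and 11.2 to 25 and 19.9 CPM (log2 fold change 1.16 ± 0.22, adjusted p = 0.0273), and the small subunit of ribonucleotide reductase, which makes deoxynucleotides, from 0.289 and 0.858 to 4.97 and 3.16 (log2 fold change 2.79 ± 0.48, adjusted p = 0.0225). A cyclin of 433 codons, from the family that drives the cell cycle, and a family B DNA polymerase of 1335 codons rose as well (log2 fold changes 2.46 and 2.20, adjusted p = 0.0243 and 0.0149). Together 11 of 25 replication transcripts rose and 0 fell (6.56% and 5.01% over all transcripts), with 1 of 8 cyclins and 0 of 2 cyclin-dependent kinase subunits among them. The MCM signature was set before values were seen. Those of the other 19 transcripts, of which 5 rose, were added afterwards, so the joint count is a description without a test. The summed level of the 25 was 58.5 and 63.5 CPM in young liver, 145 and 159 in adult fish and 137 and 124 in old liver.

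Kinesins, motors that move chromosomes and cargo along microtubules, gave 8 higher and 0 lower of 31 (6.56% and 5.01% over all transcripts, median 0.29). The most abundant called kinesin, of 1092 codons, rose from 0.722 and 1.27 CPM in young liver through 8.36 and 11.9 in adult to 6.52 and 3.72 in old (log2 fold change 2.35 ± 0.41, adjusted p = 0.023). For the topoisomerase, the reductase and this kinesin, both adult libraries lay above both old ones, whereas for the printed MCM protein both old libraries lay above both adult ones. Without old 1 there were 9 replication and 5 kinesin calls, without old 2 10 and 5, and without either young library none. With library totals alone the medians of histones, replication enzymes and kinesins were 2.44, 1.99 and 1.13, beside 0.93 over all transcripts. That setting moved the median transcript upward, so it could hardly reverse a rise and is no separate check of direction.

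Transcripts of immune-type and other cell surface families rose more often than they fell. Of 264 tested, 47 were called higher and 15 lower (6.56% and 5.01% over all transcripts), with a median log2 fold change of 0.75 against 0.07 over all transcripts. These medians were not matched for level: over all tested transcripts the median was 0.49 in the lowest quartile of mean CPM and -0.18 in the highest. The summed level of the group did not rise, at 2956 and 3354 CPM in young liver and 2496 and 3318 in old. C-type lectins, receptors and soluble proteins that bind sugars on cells and microbes, gave 9 higher and 1 lower of 31 (median 1.22). Their summed level was 773 and 727 CPM in young liver and 619 and 652 in old. The most abundant called one, of 1100 codons, rose from 6.72 and 10.1 CPM in young liver to 40.2 and 53.3 in old, with 8.09 and 6.88 in adult (log2 fold change 2.47 ± 0.28, adjusted p = 0.0131). The only lectin that fell, of 153 codons, went from 3.18 and 4.35 to 0.0753 and 0.0268 CPM (log2 fold change -6.03 ± 0.52, adjusted p = 0.0085). Transcripts with the immunoglobulin V-type pattern, present in antibodies, T cell receptors and many adhesion proteins, gave 14 higher and 7 lower of 110. The most abundant in each direction had 1039 codons and rose from 13 and 20.8 to 46.7 and 38.3 CPM (log2 fold change 1.33 ± 0.27, adjusted p = 0.0307), and 564 codons and fell from 77.1 and 125 to 22.6 and 30.7 (log2 fold change -1.92 ± 0.34, adjusted p = 0.0236). The C1-type pattern of antibody constant regions and histocompatibility proteins gave 4 higher and 0 lower of 31. Receptors of the rhodopsin type, a family that includes chemokine and hormone receptors, gave 20 higher and 7 lower of 94. The most abundant called one stood at 2.27 and 3.64 CPM in young liver and 8.81 and 48.5 in old (log2 fold change 3.27 ± 0.75, adjusted p = 0.0383).

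The old libraries differed from each other in these families and in some transcripts outside them, and the next values are given per library for that reason. A papain-type cysteine protease of 337 codons, a family that includes the lysosomal cathepsins, stood at 10.8 and 18.4 CPM in young liver, 37.6 in old 1 and 289 in old 2 (log2 fold change 3.48 ± 0.86, adjusted p = 0.0452), and another of 330 codons, named after its values were seen, at 5.85 and 9.44, 23.4 and 101 (log2 fold change 3.02 ± 0.65, adjusted p = 0.0336). Of 13 such proteases tested 2 rose and 1 fell (6.56% and 5.01% over all transcripts, median -0.18). The faller, of 592 codons, went from 27.2 and 27 to 12.8 and 9.15 CPM (log2 fold change -1.3 ± 0.23, adjusted p = 0.0226). The family summed to 2194 and 2434 CPM in young liver and 1531 and 1991 in old. A protein of 152 residues from the pancreatic ribonuclease family, which includes antimicrobial ribonucleases, rose more evenly, from 11.5 and 12 to 58.5 and 88 CPM (log2 fold change 2.64 ± 0.26, adjusted p = 0.0109). Higher and lower calls over the immune-type group numbered 56 and 9 without old 1, and 17 and 8 without old 2. For C-type lectins they numbered 12 and 2 without old 1, and 4 and 1 without old 2, for the rhodopsin-type receptors 21 and 5 without old 1, and 7 and 5 without old 2, for the V-type pattern 18 and 2 without old 1, and 6 and 2 without old 2, and for the C1-type pattern 6 and 0 without old 1, and 0 and 0 without old 2. None of these calls remained without either young library.

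Among proteins of iron handling, 2 of 5 tested transcripts rose (6.56% of all transcripts did). Ferritin, the shell that stores iron in cells, was represented by 3 transcripts, of which one of 176 codons went from 117 and 163 CPM in young liver through 995 and 913 in adult to 751 and 1344 in old (log2 fold change 2.90 ± 0.39, adjusted p = 0.0149). Its adult and old values overlapped. The transcript with the hepcidin-type cysteine pattern, whose sequence is printed above, encodes 93 residues. Hepcidin is a liver hormone that lowers iron export and, in fish as in mammals, also belongs to the antimicrobial peptides. The transcript stood at 8.85 and 17 CPM in young liver, 23.8 and 7.51 in adult, 118 in old 1 and 1085 in old 2 (log2 fold change 5.54 ± 1.15, adjusted p = 0.0317). Every old value lay above every younger one, but the old libraries differed from each other by far more than the young ones did. The 1 transferrin, the iron carrier of plasma, had a log2 fold change of 0.29 and did not pass. No call in this group remained without either young library.

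Digestive enzymes of the kind that exocrine pancreas secretes were present in every library and had a higher summed level in old than in young liver. The 16 tested transcripts were grouped by the pocket signatures of pancreas-type proteases or by the amylase signature. They summed to 9593 and 8862 CPM in young liver, 6449.7 and 8905 in adult fish and 19479 and 14313 in old libraries. Of them 4 rose and 1 fell (6.56% and 5.01% over all transcripts, median 0.74), and 13 had a log2 fold change above 0. All of these calls were of the trypsin type, in which 4 of 18 coding sequences in the reference are identical copies. With the first and last 20 codons left out, 1 of 12 was called higher and 1 lower. The pocket alone does not set pancreatic enzymes apart. A riser of 390 codons also carried the kringle signature (0.578 and 0.444 to 2.22 and 5.4 CPM). The faller, of 340 codons, had 1 membrane-like stretch and went from 6.9 and 13.1 to 2.22 and 1.2 CPM. The abundant members outside the trypsin type did not pass the test. Chymotrypsin-type pockets were found in a transcript at 2364 and 2321 CPM in young liver and 5275 and 4427 in old (log2 fold change 1.05 ± 0.36, adjusted p = 0.102), elastase-type pockets in one at 3323 and 3124 and 6367 and 4214 (log2 fold change 0.71 ± 0.34, adjusted p = 0.203). Amylase stood at 1454 and 1177 CPM in young liver and 1668 and 1543 in old (log2 fold change 0.29 ± 0.30, adjusted p = 0.545). Outside these 16 pancreas-type transcripts, a zinc carboxypeptidase of 422 codons stood at 1641 and 1331 and 4316 and 2763 CPM (log2 fold change 1.25 ± 0.37, adjusted p = 0.068). Its family gave 1 higher and 1 lower of 16 tested. The riser, of 443 codons, went from 0.361 and 0.71 to 3.88 and 6.37 CPM (log2 fold change 3.23 ± 0.46, adjusted p = 0.0166). The faller, of 745 codons, went from 35.7 and 40.8 to 15.5 and 15.3 (log2 fold change -1.31 ± 0.20, adjusted p = 0.0173). The direction of change in the pancreas-type group, by its median log2 fold change, was 0.29 without old 1 and 0.93 without old 2, and its calls did not remain without either young library. Whether the amount of pancreatic tissue in the dissected livers has a part in any result here was not tested.

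Cytoskeletal proteins gave 10 higher and 4 lower of 68 (6.56% and 5.01% over all transcripts). The called actin, of 376 codons, rose from 299 and 290.2 CPM in young liver through 389 and 460.3 in adult to 587 and 1053 in old (log2 fold change 1.48 ± 0.35, adjusted p = 0.0396). An intermediate filament protein of 537 codons, of the family of keratins and vimentin, rose from 85.4 and 92.6 to 252 and 234 CPM (log2 fold change 1.45 ± 0.27, adjusted p = 0.0252), and a protein of 618 residues with the actin-binding domain of the calponin type from 9.21 and 11.1 to 36.4 and 97.8 (log2 fold change 2.72 ± 0.47, adjusted p = 0.0225). Others fell, among them a tubulin of 474 codons, a subunit of microtubules, from 45.3 and 49.9 to 12.6 and 12.4 CPM (log2 fold change -1.93 ± 0.23, adjusted p = 0.0132), and an intermediate filament protein of 467 codons from 15 and 32 to 7.31 and 6.9 (log2 fold change -1.73 ± 0.35, adjusted p = 0.0296). Families of protein folding and turnover gave 14 higher and 9 lower of 181, near the shares over all transcripts. Of these, 4 of 9 alpha-type subunits of the proteasome, the particle that degrades tagged proteins, rose and 0 fell (median 0.99), while ubiquitin-conjugating enzymes, which help to attach such tags, gave 1 higher and 3 lower of 29 and proteins with an endoplasmic reticulum retention ending 1 and 3 of 45 (medians -0.36 and -0.35). The most abundant ubiquitin-conjugating enzyme to fall, of 241 codons, went from 37.2 and 30 to 8.4 and 7.78 CPM (log2 fold change -2.05 ± 0.22, adjusted p = 0.0119). The most abundant called proteasome subunit stood at 27.7 and 28.1 CPM in young liver and 64.4 and 49.2 in old (log2 fold change 1.03 ± 0.23, adjusted p = 0.0374). A heat shock protein of the HSP90 family rose from 1.55 and 1.98 to 10.6 and 7.54 CPM (log2 fold change 2.36 ± 0.28, adjusted p = 0.0132), a chaperonin of the TCP1 family, which folds actin and tubulin, from 21.2 and 21.9 to 34.3 and 41.1 (log2 fold change 0.81 ± 0.20, adjusted p = 0.045), and a peroxiredoxin, which breaks down peroxides, from 39.3 and 62.5 to 139 and 131 (log2 fold change 1.41 ± 0.29, adjusted p = 0.0302). These were the only calls among 3 HSP90, 8 TCP1 and 4 peroxiredoxin transcripts tested. Summed over the family, HSP90 stood at 970 and 821 CPM in young liver and 905 and 601 in old. TCP1 stood at 143 and 133 in young and 212 and 209 in old, and peroxiredoxins at 540 and 483 and 501 and 405. Higher and lower cytoskeletal calls numbered 5 and 2 without old 1, and 6 and 1 without old 2. The proteasome calls numbered 1 without old 1 and 1 without old 2.

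Matrix and other extracellular modules gave 15 higher and 8 lower of 154 tested transcripts (6.56% and 5.01% over all transcripts). Collagen-like repeats form the triple helices of matrix collagens and of some plasma lectins, and gave 7 higher and 4 lower of 67. One of 467 codons fell from 54.4 and 52.2 CPM in young liver through 37 and 21.6 in adult to 2 and 1.42 in old (log2 fold change -4.96 ± 0.36, adjusted p = 0.00838), while the most abundant riser, of 411 codons, went from 3.75 and 7.1 to 15 and 43.3 (log2 fold change 2.42 ± 0.53, adjusted p = 0.0342). EGF-like modules gave 8 higher and 4 lower of 87. A transcript of 477 codons fell from 85.3 and 112 to 21.3 and 21.6 CPM (log2 fold change -2.21 ± 0.24, adjusted p = 0.0128) and one of 3385 codons rose from 19.1 and 17.6 to 46.9 and 42.6 (log2 fold change 1.28 ± 0.21, adjusted p = 0.0214). Over the group, 12 were called higher and 11 lower without old 1, and 8 and 5 without old 2. RNA-binding and translation families gave 4 higher and 10 lower of 164, and signalling families 35 and 20 of 525, beside 6.56% higher and 5.01% lower over all transcripts.

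**Figure D3:**
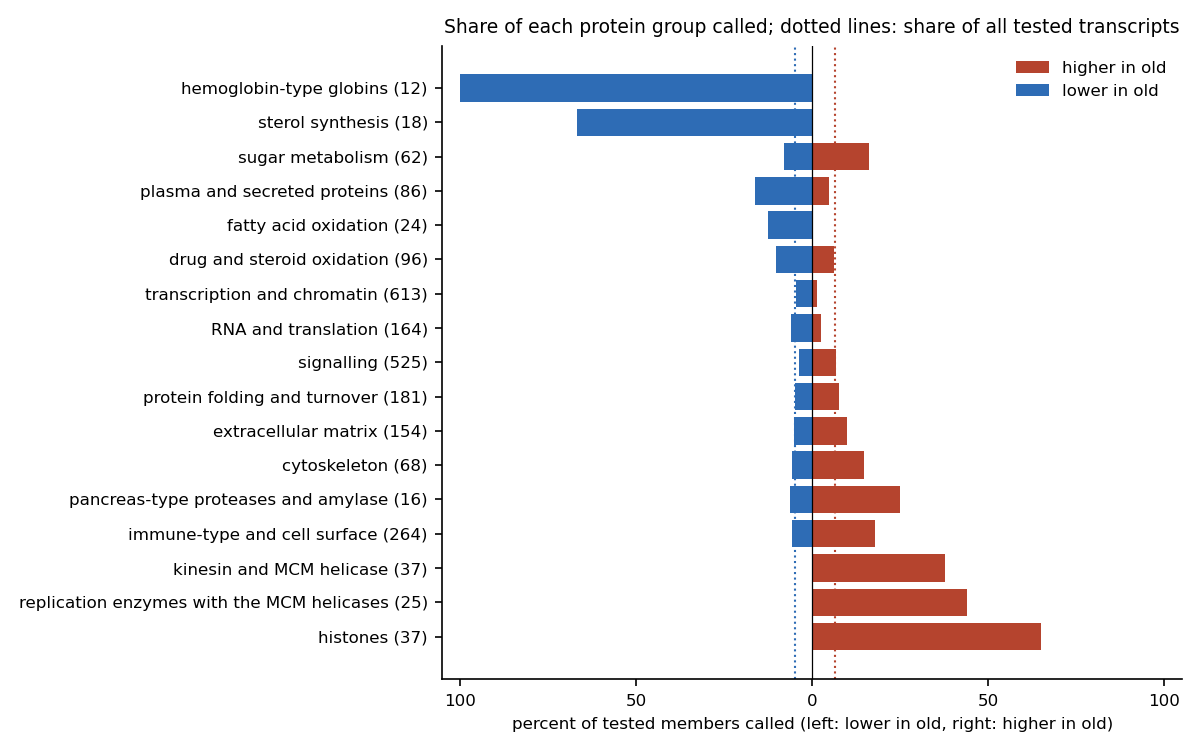
Percent of the tested transcripts of each protein group that were called higher (right) or lower (left) in old than in young liver, with the number tested beside each group; dotted lines mark the percentages over all tested transcripts, 6.56% higher and 5.01% lower, and kinesins and MCM helicases are also drawn as a group of their own. Globins and sterol synthesis extend far to the left, and histones and replication enzymes far to the right.

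Properties of the encoded protein that do not depend on a family were compared by quartile of all tested transcripts. The share called lower rose with the level of the transcript, from 1.13% in the lowest quartile of mean CPM to 2.52%, 5.94% and 10.4% in the highest, while the share called higher was 4.60%, 9.33%, 7.20% and 5.12%. Proteins rich in lysine were called higher more often and lower less often: across quartiles of lysine content the share called higher was 5.06%, 6.07%, 6.71% and 8.41%, and the share called lower 6.38%, 6.51%, 4.37% and 2.78%. The median lysine content was 5.92% in transcripts that rose, 4.90% in those that fell and 5.53% over all. Across quartiles of arginine, the other common basic residue, the share called higher fell, at 7.63%, 6.87%, 6.51% and 5.25%, and the share called lower was 5.71%, 5.27%, 4.40% and 4.65%. Glycine-rich proteins were called higher less often (8.05% in the lowest and 6.02% in the highest quartile) and lower more often (4.01% and 6.07%). Coding length showed little gradient except in the longest quartile, where 3.21% were called lower against 5.48% in the shortest. Transcripts are not independent replicates of an age, and these shares carry no test.

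**Figure D4:**
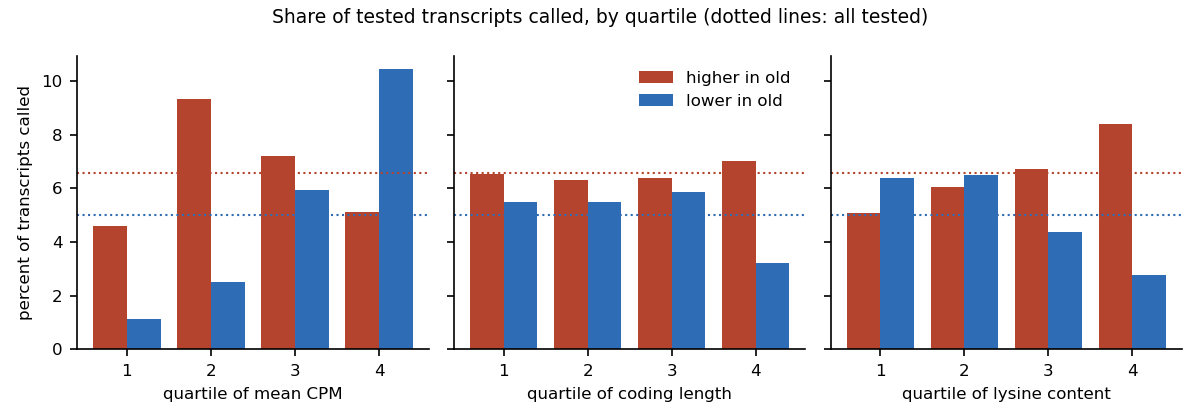
Percent of tested transcripts called higher or lower in old than in young liver by quartile (1 lowest, 4 highest) of mean level, coding length and lysine content; a bar is a quartile of 3889 or 3890 transcripts and dotted lines mark 6.56% and 5.01%. The share called lower climbs from 1.13% to 10.4% with level and falls from 6.38% to 2.78% with lysine content.

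Some classes of protein stood at the extremes of these properties, and their shares stand beside 6.56% higher and 5.01% lower over all transcripts. Proteins with at least 20% lysine and arginine, the content of histones and other nucleic acid-binding proteins, numbered 326 tested, of which 37 rose (11.3%) and 6 fell (1.84%). This class overlaps the histone result above, where 24 of 37 tested histones rose. How many of the rises here are histones was not counted, so a rise of basic proteins beyond histones is not shown. Proteins with 6 or more membrane-like hydrophobic stretches, the pattern of transporters and receptors, numbered 643, of which 45 rose (7.0%) and 62 fell (9.64%). A signal peptide-like start, which sends a protein into the secretory pathway, was found in 2472, of which 200 rose (8.09%) and 171 fell (6.92%). Proteins longer than 1000 residues numbered 2206, with 165 higher (7.48%) and 71 lower (3.22%), and those with at least 8% cysteine 192, with 18 higher (9.38%) and 16 lower (8.33%).

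The make-up of all footprints of a library was then compared, weighting each protein by its footprints. The mean coding length under ribosomes was 962 and 847 codons in the young and 802 and 665 in the old libraries. The share of footprints on proteins with a signal peptide-like start was 80.5 and 73.7% in young and 72.1 and 66.7% in old, and on proteins with membrane-like stretches 33 and 29.1% and 26.3 and 21%. Proline made up 6.89 and 6.18% of residues in young and 5.94 and 5.42% in old, glycine 5.14 and 5.57% and 5.99 and 6.39%, and lysine with arginine 10.3 and 10.4% and 10.4 and 10.5%, of which the last pair overlapped. Of all footprints, globins took 2.31 and 3.42% in young and 0.663 and 0.701% in old, pancreas-type enzymes 0.715 and 0.808% and 2.65 and 2.37%, histones 0.0623 and 0.086% and 0.188 and 0.245%, and sterol enzymes 0.248 and 0.295% and 0.146 and 0.164%. These shares carry no TMM scaling, and most protein groups took a larger share in old, so a rise is not particular to a family. Fatty acid oxidation, whose calls were all lower, went from 0.0707 and 0.0877% to 0.113 and 0.107%. Over 38 such features, those whose groups did not overlap reached p = 0.333 in a two-sided exact permutation test, the smallest that 2 against 2 libraries can give (Benjamini-Hochberg adjusted p = 0.409). The direction of several depended on the most abundant transcripts: with the 10 most abundant left out, the share on signal peptide-like starts was 2.87 percentage points higher in old than in young.

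**Figure D5:**
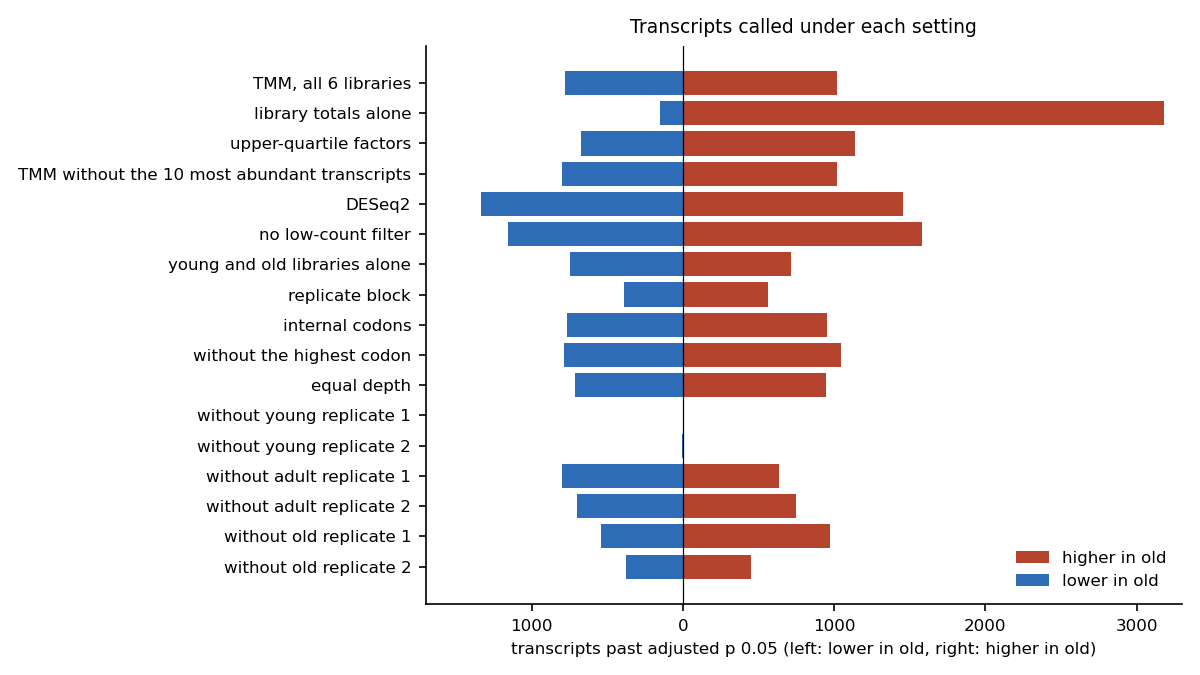
Number of transcripts called higher and lower in old than in young liver under each processing alternative and with each library left out; bars start at 0. The counts are 1021 and 779 as reported, 3180 and 151 with library totals alone, and 0 higher with 2 or 3 lower when a young library is left out.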

How the data were processed

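Livers of 3 ages were profiled, with 2 libraries per age. Per the labels and the study's methods, the authors lysed pooled frozen livers (cycloheximide in the lysis buffer), digested them with RNase I, collected ribosomes through sucrose, removed ribosomal RNA, trimmed reads (Cutadapt 1.4.2, FASTX), and aligned them with Bowtie 1.3.1 to the longest transcript of each gene with at most 2 mismatches, keeping unique hits. They assigned each footprint to a codon with riboWaltz offsets, and the deposited values are raw counts of footprints per codon. No molecular identifiers are described, so reads are not independent molecules.

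Here the counts were summed from the start to the stop codon, and transcripts were tested with edgeR 4.0.16 (R 4.3.3): filterByExpr, TMM factors, a quasi-likelihood test on all 6 libraries with the contrast old minus young, and Benjamini-Hochberg adjustment over 15557 transcripts at 0.05. The common coefficient of variation was 28.7%. The test was first run on simulated data. The 2 libraries of an age are separate pools, and p-values measure only their spread. TMM-scaled CPM, coding features and signature searches were computed in Python 3.11.15 (numpy 2.4.6, pandas 2.3.3, scipy 1.17.1); a signal peptide-like start has an 11-residue window of mean hydropathy 2.0 or more within 35 residues, and a membrane-like stretch a 19-residue window of 1.6 or more after residue 40. Undetermined codons occurred in 73 transcripts. By rule, identifiers were given to the 2 most abundant called transcripts in each direction past a log2 fold change of 1, and other transcripts were described by coding length and signature, the most abundant called one per family and direction; any other called member named in the text was chosen after its values were seen. The members and lists were chosen with earlier results of these data known, and 84 of the 124 signatures were added after values had been seen. Among them are those for globins, histones, replication enzymes other than the MCM proteins, pancreas-type enzymes, and sterol, sugar and iron proteins. Family counts are therefore descriptions and carry no test. Alternatives were other scalings, DESeq2 1.42.0, no filter, 4 libraries, a replicate block, fewer codons, equal depth and each library left out. The authors' ages were read from the series' design text.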

Additional observations from a re-analysis of the deposited data

How the results depend on the processing

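As reported, 1021 transcripts were higher and 779 lower in old than in young liver, from a fit that included the adult libraries. A fit of the young and old libraries alone gave 715 higher and 749 lower, of which 668 and 650 were shared. Lower calls then outnumbered higher ones, unlike in the reported fit. Of the 134 transcripts representing the families, 110 kept their call without the adult libraries. Library totals alone gave 3180 higher and 151 lower, of which 1021 and 115 were shared; by construction this setting leaves out the correction for dominant transcripts. DESeq2 called 1337 lower (778 shared) and 1458 higher. Without the filter on low counts 1581 were higher, with 21030 transcripts tested. Leaving out each library in turn gave 0 to 970 higher and 2 to 798 lower calls, with 0 and 2 without young 1 and 0 and 3 without young 2; the cause was not tested. The shallowest library, old 2, limits the rarest transcripts, and at equal depth 944 and 712 were called. The labels tie same-numbered libraries of different ages by the number alone. Their deviations from the age means correlated at -0.095 (young with adult), 0.149 (young with old) and -0.155 (adult with old). Whether they shared a preparation batch cannot be told from these values. With the replicate number as a block, 564 were called higher and 388 lower, 534 and 380 of them shared, and 74 of the 134 transcripts representing the families kept their call.

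Changes in footprint-weighted features (old minus young) moved by more than the spread between replicates without the 10 most abundant transcripts: coding length -54.2 codons, lysine with arginine -0.0307, aspartate with glutamate -0.196, glycine 0.26, proline -0.0086, serine 0.356, aromatic -0.0977 and aliphatic residues -0.501 percentage points, signal peptide-like starts 2.87 and membrane-like stretches 0.187 percentage points.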
